A study of Mus musculus with 4 samples.

Results

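The collagen chains are the 44 genes, of 54446 rows in the deposited table, whose symbol has the form Col, a type number, the letter a and a chain number. They were grouped into 11 fibrillar chains, 8 basement membrane chains (type IV with Col15a1 and Col18a1) and 25 other chains. Their transcript levels were measured in satellite cells (muscle stem cells) taken from C57BL/6 hindlimbs and cultured. The knockdown group, with 2 samples, was treated for 48 h with siRNA to the long non-coding RNA LncMyoD. The control group, with 2 samples, is labelled as treated with control siRNA, although its treatment protocol names LncMyoD as the target too. All cells grew in F10 medium with 10% HS, and whether each replicate is its own culture or animal is not stated, so every p-value here reflects sample-to-sample spread that could be technical. Of the rows, 0 carried the name LncMyoD, so the siRNA target was not analysed here and does not check the group labels.

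A collagen is a trimer of chains that wind into a triple helix, in which glycine recurs at a fixed spacing along each chain. Fibrillar collagens are made as procollagens, trimmed outside the cell and packed into fibrils, while type IV collagen forms the sheet-like network of basement membranes and most other types link, anchor or span these structures. In muscle, fibroblasts make much of the interstitial collagen, the basal lamina covers each fibre and its satellite cells, and collagens V and VI are known in mice as parts of the satellite cell niche.

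The glycine repeat can be read in the genes themselves as GGN codons spaced 3 codons apart. A 54-base coding exon of each of 4 fibrillar chains is shown 5′ to 3′ on the coding strand, with the 6 GGN codons in capitals, because these chains carry most of the collagen signal below or are compared with each other. The exons lie on GRCm38 at chr11:94939904-94939957 (plus strand) for Col1a1, chr6:4515481-4515534 (plus) for Col1a2, chr1:45325360-45325413 (plus) for Col3a1 and chr1:45434892-45434945 (minus) for Col5a2.
Col1a1: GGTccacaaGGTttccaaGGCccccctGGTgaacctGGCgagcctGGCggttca
Col1a2: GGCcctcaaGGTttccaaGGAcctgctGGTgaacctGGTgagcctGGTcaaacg
Col3a1: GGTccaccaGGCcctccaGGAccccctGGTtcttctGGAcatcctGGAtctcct
Col5a2: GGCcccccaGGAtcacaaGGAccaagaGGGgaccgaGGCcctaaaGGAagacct

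The longest unbroken run of codon triplets led by GGN was 216 to 344 triplets in the fibrillar chains, 30 to 66 in the basement membrane chains and 23 to 113 in the others. Over 300 triplets were found in 9 of the 11 fibrillar chains and in 0 of the 33 other chains. The fibrillar exceptions were Col24a1 with 216 and Col27a1 with 217. In type IV chains the runs were short, at 39 to 66 triplets, although 74.9% to 78.9% of the coding sequence lay in runs of at least 3. Coding exons whose length is a multiple of 9 bases made up 74.6% to 88.5% of exons in fibrillar genes and 38.5% to 55.6% in type IV genes.

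**Figure D1:**
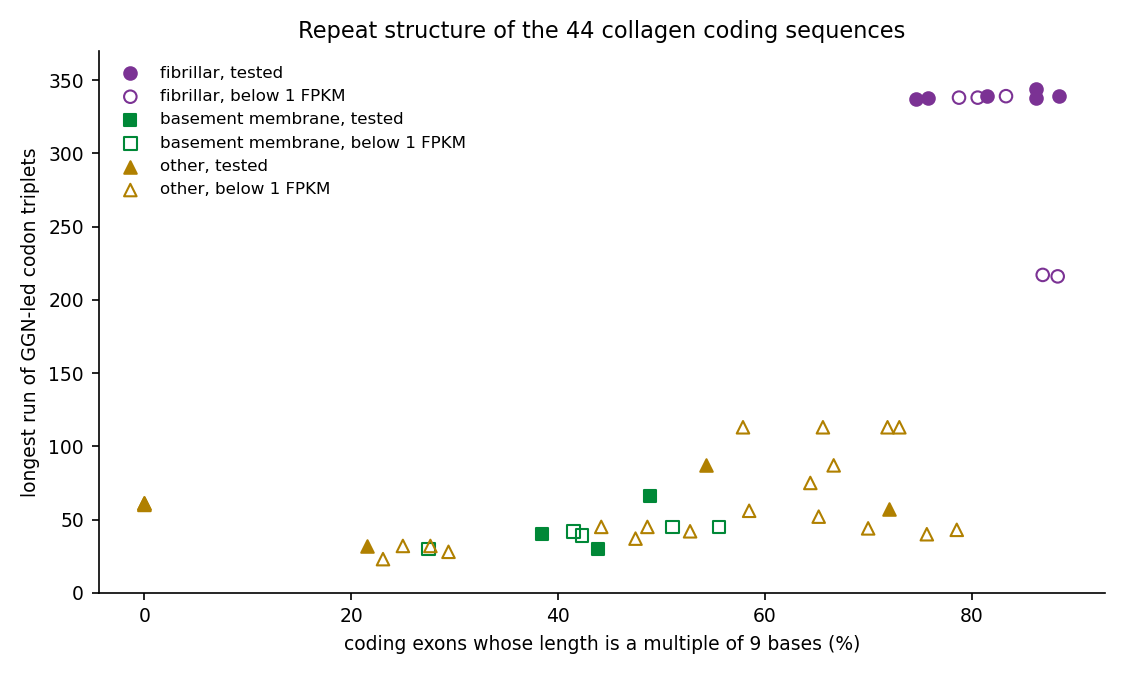
Longest run of GGN-led codon triplets (vertical axis, number of triplets) against the share of coding exons whose length is a multiple of 9 bases (horizontal axis, percent) for the 44 chains, by class, with filled symbols for chains at a mean of at least 1 FPKM. The fibrillar chains stand apart at 216 to 344 triplets, and the highest of the remaining 33 chains reaches 113.

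Expression was carried by a few fibrillar chains. Values are FPKM, which scales fragments to transcript length and to library size. Levels of different genes are set side by side per length here, although which transcripts a gene uses can move its FPKM. Summed over all 44 rows, collagens stood at 163 and 195 FPKM in knockdown replicates 1 and 2, and at 158 and 160 FPKM in control replicates 1 and 2. This was 0.0515% and 0.0609% of all FPKM in the knockdown libraries and 0.0490% and 0.0497% in the controls. Fibrillar chains took 85.0% and 80.7% of the collagen sum in knockdown cells and 83.4% and 82.9% in control cells, and Col5a2 alone took 48.6% and 48.6% in knockdown and 47.1% and 46.5% in control. The ratio of the knockdown mean to the control mean of the sum was 1.13, and it was 1.23 and 1.03 without knockdown replicates 1 and 2.

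Of the 44 chains, 13 averaged 1 FPKM or more across the samples and were tested. Of the other 31, 22 had a value above 0 in some sample and 9 were listed at 0 in all. Around this limit stood Col5a3 with a mean of 1.03 FPKM inside it and Col6a2 with 0.290 FPKM outside it. An FPKM of 1 corresponded to a mean of 5.50 to 6.16 aligned reads per base of the transcript, by the step between low values. On its longest transcript, Col5a3 corresponded to at most 101 and 460 reads in knockdown and 188 and 254 in control. Col12a1, with a mean of 1.15 FPKM, had at most 422 and 747 in knockdown and 422 and 489 in control. For Col18a1, with a mean of 1.14 FPKM, these were 304 and 549 in knockdown and 36.05 and 112 in control.

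**Figure D2:**
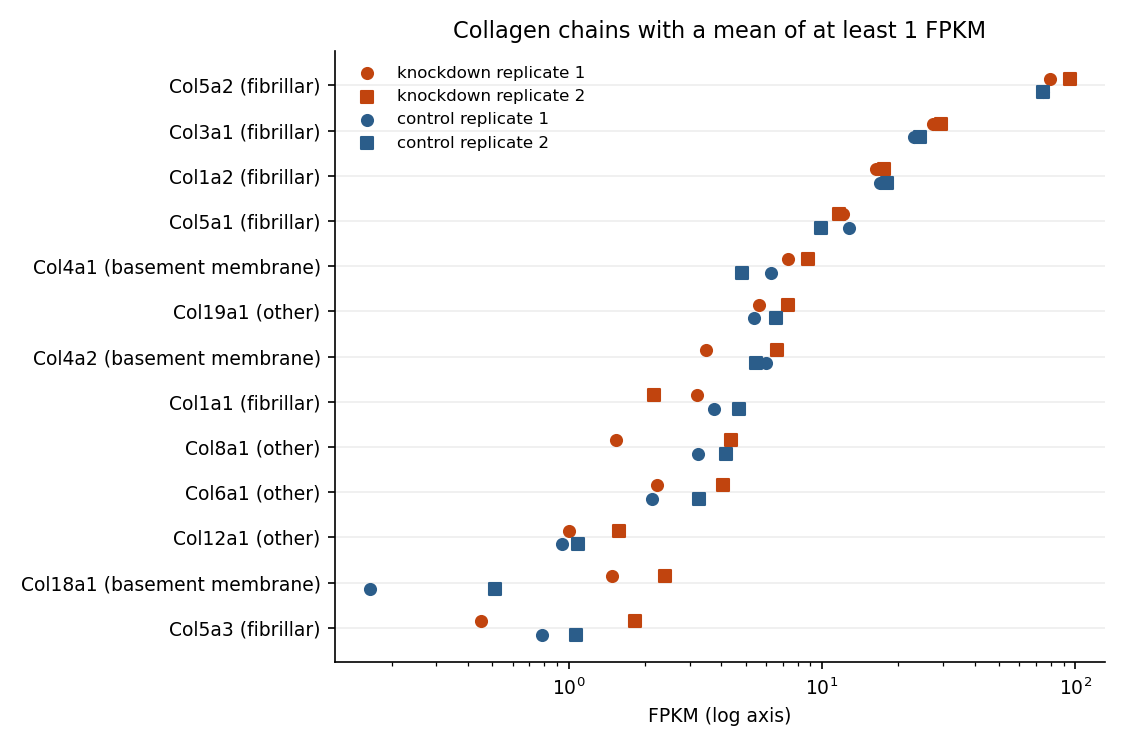
FPKM on a log axis of the 13 chains averaging 1 FPKM or more, ordered by mean, with 1 point per library (orange knockdown, blue control; circles replicate 1, squares replicate 2). Col5a2 lies highest at 74.4 to 94.99 FPKM, and Col18a1 and Col1a1 are among the chains whose groups do not overlap.

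The whole table was fitted with limma on log2(FPKM + 1), with Benjamini-Hochberg adjustment over 10900 genes, and 0 of the 13 collagen chains passed an adjusted p of 0.05. That threshold was passed by 0.055% of all genes tested, 0.00917% with higher and 0.0459% with lower values in knockdown. At an unadjusted p under 0.05 there was 1 chain, Col18a1, which is 7.69% of the 13 against 7.08% of all genes (4.39% higher and 2.7% lower in knockdown). Each knockdown library exceeded each control library for 4 chains (Col5a2, Col3a1, Col4a1 and Col18a1), which is 30.8% against 22.1% of all genes. Each lay below both controls for 1 chain (Col1a1), which is 7.69% against 16.3% of all genes. The count at an unadjusted p under 0.05 and that of the 4 higher chains include Col18a1, which passed the filter only through the knockdown libraries. Col18a1 averaged 0.339 FPKM in control, so these counts are a description and no support for a difference of the chains. The log2 fold change, knockdown minus control, was positive for 9 chains and negative for 4, where 54.8% of all genes were positive. Its median was 0.09 beside 0.03 over all genes tested. The 9 include Col18a1 and Col5a3, which averaged 0.339 and 0.925 FPKM in control and 1.94 and 1.14 FPKM in knockdown. Both passed the filter only through the knockdown mean, so this count and median are a description too. Relative to the control mean the chains had a median of -0.07 in the first knockdown replicate (1) and 0.30 in the other (2). Knockdown replicate 2 also ran higher across genes. The median ratio of its values to each gene's geometric mean over the libraries was 1.03, against 1.00 in knockdown replicate 1. The same order of the replicates was not counted over all genes. Without control replicate 1 the median of the chains was -0.03, so its sign depends on single libraries.

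**Figure D3:**
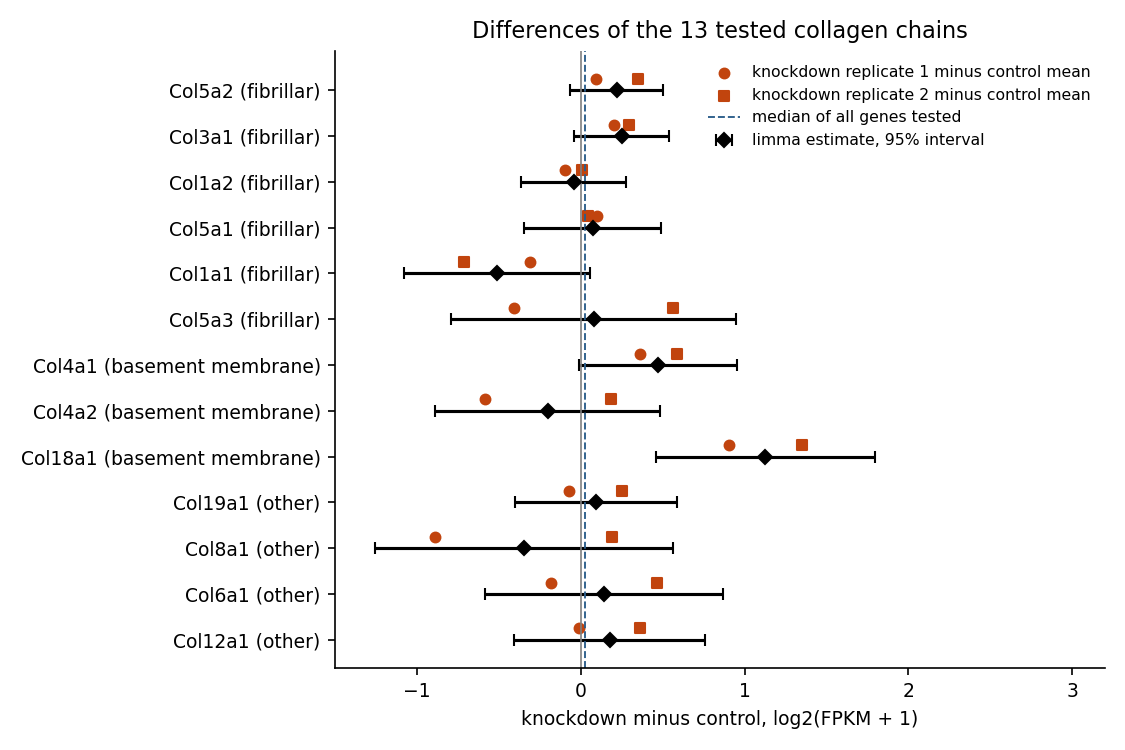
Differences of the 13 tested chains, as knockdown minus control in log2(FPKM + 1) units, with limma estimates and 95% intervals (black), the difference of each knockdown library from the control mean (orange) and the median of all genes tested (dashed). The interval of Col18a1, from 0.46 to 1.79, is the one that does not include 0 before adjustment.

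Among the fibrillar chains, Col5a2 was the most abundant. It is a chain of type V collagen, which helps start fibrils and sits inside them. Col5a2 (chr1:45374321-45503282, minus strand) had 79.5 and 94.99 FPKM in knockdown and 74.4 and 74.6 FPKM in control. Both knockdown libraries were the higher, replicate 1 by less than the gap between the knockdown replicates. Its log2 fold change was 0.22 ± 0.12 (SE), with a 95% interval of -0.06 to 0.50 and a limma adjusted p of 0.724. By mean level 93.3% of all genes tested lay below Col5a2.

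Col5a1, the partner that forms type V trimers with Col5a2, had 12.1 and 11.6 FPKM in knockdown and 12.8 and 9.91 FPKM in control. The groups overlapped, with a log2 fold change of 0.07 (95% interval -0.34 to 0.49), which was -0.10 without control replicate 2. The ratio of Col5a1 to Col5a2 was 0.153 and 0.123 in knockdown and 0.172 and 0.133 in control, below 1 in all 4 libraries. Col5a3, a further type V chain, had 0.449 and 1.83 FPKM in knockdown and 0.785 and 1.06 FPKM in control, so the knockdown libraries spanned both controls.

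Col3a1, the chain of the homotrimeric type III collagen of soft tissue, is the neighbour of Col5a2 on chromosome 1. Col3a1 (chr1:45311538-45349706, plus strand) and Col5a2 lie tail to tail with 24614 bases between them. Col3a1 had 27.4 and 29.4 FPKM in knockdown and 23.05 and 24.4 FPKM in control. The groups did not overlap, with a log2 fold change of 0.25 ± 0.12 (SE), a 95% interval of -0.04 to 0.54 and a limma adjusted p of 0.712. The other tail-to-tail neighbours on that chromosome, Col9a1 and Col19a1, lie 9205 bases apart, and there Col9a1 was listed at 0 in all samples while Col19a1 reached 7.32 FPKM.

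The chains of type I collagen, the main collagen of bone, tendon and muscle connective tissue, stood at unequal levels. In its common form this collagen holds more Col1a1 chains than Col1a2 chains. Col1a1 (chr11:94936224-94953042, plus strand) had 3.2004 and 2.18 FPKM in knockdown and 3.76 and 4.70 FPKM in control. Both knockdown libraries were the lower, with a log2 fold change of -0.51 ± 0.23 (SE), a 95% interval of -1.08 to 0.06 and a limma adjusted p of 0.698. Leaving out knockdown replicate 2 gave -0.31, and leaving out replicate 1 gave -0.71.

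Col1a2 (chr6:4504814-4541544, plus strand) had 16.3 and 17.6 FPKM in knockdown and 16.97 and 18.0 FPKM in control, with overlapping groups and a log2 fold change of -0.04 (95% interval -0.36 to 0.28). It was the more abundant type I chain in every library. The ratio of Col1a1 to Col1a2 was 0.196 and 0.124 in knockdown and 0.222 and 0.261 in control. The groups of this ratio stood apart, with a log2 difference of -0.63 (-0.29 to -0.96 with any 1 library left out) and a two-sided exact permutation p of 0.3333, the smallest that 2 against 2 samples can give.

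The ratio of Col3a1 to Col1a1 was 8.57 and 13.5 in knockdown and 6.13 and 5.19 in control. These groups also stood apart, with a log2 difference of 0.93 and the same exact p of 0.3333. The difference was 0.60 to 1.26 when any 1 library was left out.

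**Figure D4:**
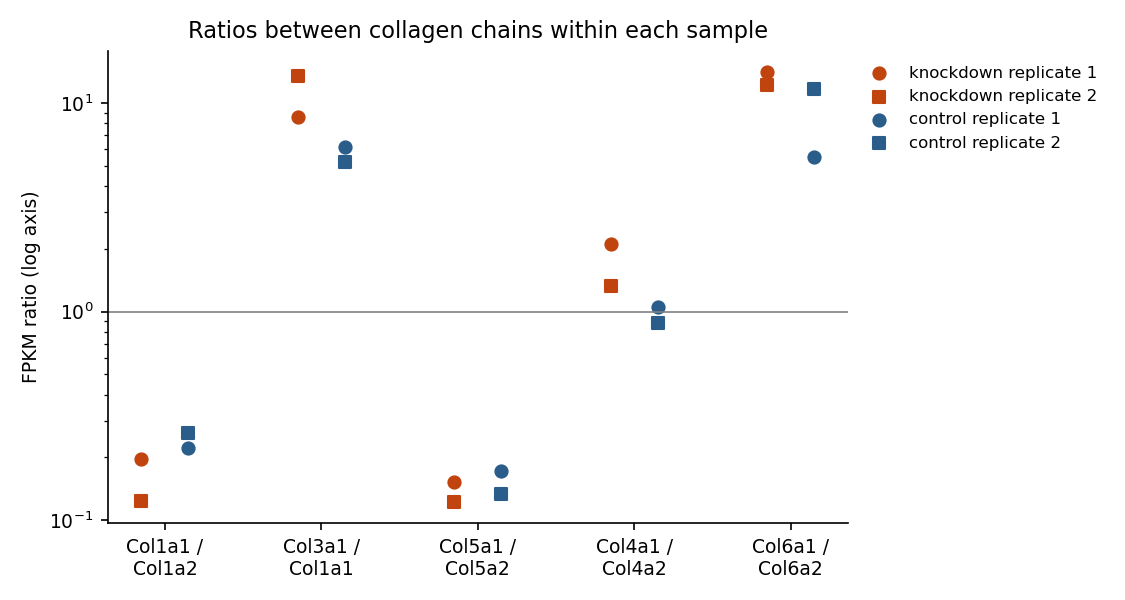
FPKM ratios between pairs of chains in each library, on a log axis (orange knockdown, blue control; circles replicate 1, squares replicate 2; grey line at 1). Col1a1 to Col1a2 and Col5a1 to Col5a2 lie below 1 in all libraries, and Col4a1 to Col4a2 lies at 1.32 and 2.12 in knockdown and 0.882 and 1.05 in control.

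In order of level, Col5a2, Col3a1, Col1a2 and Col5a1 were separate from each other in all 4 libraries, with ranges of 74.4 to 94.99, 23.05 to 29.4, 16.3 to 18.0 and 9.91 to 12.8 FPKM. Among the other 9, the range of each overlapped that of the next in the order of means, except that Col6a1 (2.13 to 4.06 FPKM) stood above Col12a1 (0.938 to 1.58 FPKM).

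The genes of the ubiquitous type IV chains, Col4a1 (chr8:11198423-11312826, minus strand) and Col4a2 (chr8:11312805-11449287, plus strand), lie head to head, and their annotated exons overlap by 22 bases. Their 300-base promoter windows, 250 bases before to 50 after the start, share 78 bases. Both windows are shown 5′ to 3′ on the strand of their gene, from RefSeq on GRCm38.p6. They are given because the starts adjoin and the levels of the pair are compared below. Capitals mark matches to the motif CCAAT and to the motif GGGCGG on either strand. The windows are chr8:11312777-11313076 for Col4a1 and chr8:11312555-11312854 for Col4a2.
Col4a1: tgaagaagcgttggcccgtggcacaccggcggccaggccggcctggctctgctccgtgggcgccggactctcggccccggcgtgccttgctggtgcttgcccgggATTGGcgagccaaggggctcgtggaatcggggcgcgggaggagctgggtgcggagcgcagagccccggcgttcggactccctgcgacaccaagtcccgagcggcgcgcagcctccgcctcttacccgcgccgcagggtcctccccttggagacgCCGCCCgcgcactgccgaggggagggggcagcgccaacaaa
Col4a2: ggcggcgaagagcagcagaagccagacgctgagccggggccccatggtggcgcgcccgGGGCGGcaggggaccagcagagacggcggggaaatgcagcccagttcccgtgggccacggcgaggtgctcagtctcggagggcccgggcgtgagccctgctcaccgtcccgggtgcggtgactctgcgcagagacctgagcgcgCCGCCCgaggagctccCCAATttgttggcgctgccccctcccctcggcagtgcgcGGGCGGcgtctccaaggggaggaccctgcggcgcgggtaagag

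Either strand of CCAAT was found once in each window, and either strand of GGGCGG once in that of Col4a1 and at 3 places in that of Col4a2. Over 32851 promoter windows of this length, 37.4% hold CCAAT and 35.7% hold GGGCGG on either strand. Of 38 windows of 35 collagen genes, 34.2% hold CCAAT and 60.5% hold GGGCGG. These matches describe the windows and do not show binding.

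Col4a1 had 7.36 and 8.79 FPKM in knockdown and 6.28 and 4.82 FPKM in control. Both knockdown libraries were the higher, with a log2 fold change of 0.47 ± 0.20 (SE), a 95% interval of -0.01 to 0.96 and a limma adjusted p of 0.698. Col4a2 had 3.48 and 6.65 FPKM in knockdown and 6.00 and 5.47 FPKM in control. There the knockdown libraries lay on either side of the controls, and the log2 fold change of -0.20 was 0.19 without knockdown replicate 1 and -0.59 without replicate 2. These chains assemble with each other into the common type IV trimer. The ratio of Col4a1 to Col4a2 was 2.12 and 1.32 in knockdown and 1.05 and 0.882 in control. Its log2 difference was 0.80, 0.46 to 1.14 with any 1 library left out, with an exact permutation p of 0.3333.

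Col18a1, a basement membrane collagen whose end fragment is endostatin, had the largest fold change of the 13. Col18a1 (chr10:77052178-77166548, minus strand) had 1.48 and 2.39 FPKM in knockdown and 0.165 and 0.513 FPKM in control. Both knockdown libraries stood above both controls, and the means of 1.94 ± 0.640 and 0.339 ± 0.247 FPKM (SD, n = 2) differed by 5.71-fold. The log2 fold change was 1.13 ± 0.27 (SE), with an unadjusted p of 0.00599 and a limma adjusted p of 0.566. It was 0.90 to 1.35 when any 1 library was left out, 1.54 with a pseudocount of 0.5 and 2.30 with a pseudocount of 0.1. Over all alternatives in which it was tested the limma adjusted p ranged from 0.327 to 0.999. Its mean of 1.14 FPKM passed the filter only through the knockdown libraries, since the controls averaged 0.339 FPKM. On the longest of its transcripts the values correspond to at most 304 and 549 reads of 150 nt in knockdown, and 36.05 and 112 in control.

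Col18a1 has a pair of promoter windows, at chr10:77166481-77166780 and chr10:77113656-77113955 on the minus strand. They are shown 5′ to 3′ with the same motifs in capitals, because the table holds 1 value for the whole gene and does not tell transcripts from the starts apart.
Col18a1 upstream start: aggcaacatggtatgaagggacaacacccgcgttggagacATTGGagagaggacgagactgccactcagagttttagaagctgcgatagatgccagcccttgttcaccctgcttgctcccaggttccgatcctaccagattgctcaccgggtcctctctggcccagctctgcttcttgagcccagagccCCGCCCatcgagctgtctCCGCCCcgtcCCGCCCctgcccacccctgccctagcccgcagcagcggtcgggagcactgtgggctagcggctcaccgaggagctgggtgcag
Col18a1 downstream start: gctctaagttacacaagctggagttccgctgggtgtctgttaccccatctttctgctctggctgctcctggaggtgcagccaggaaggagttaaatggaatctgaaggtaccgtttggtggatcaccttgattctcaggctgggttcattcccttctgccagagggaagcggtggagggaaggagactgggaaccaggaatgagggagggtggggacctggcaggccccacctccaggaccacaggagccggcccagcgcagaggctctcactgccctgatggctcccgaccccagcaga
The upstream window holds 1 CCAAT and 3 GGGCGG matches, all on the other strand, and the downstream window holds 0 matches to either motif.

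The median log2 fold change was 0.47 over the 3 tested basement membrane chains, 0.07 over the 6 tested fibrillar chains and 0.12 over the 4 tested others. Of these chains, Col18a1 (basement membrane) and Col5a3 (fibrillar) passed the filter only through the knockdown mean, so the medians are a description. With no filter they were -0.017 over 7 basement membrane, 0.012 over 9 fibrillar and 0.051 over 19 other chains. The basement membrane median was 0.14 with the pair of type IV chains alone. The remaining basement membrane chains were low. Col4a5, a chain of kidney and other specialised basement membranes, had 0.0813 and 0.251 FPKM in knockdown and 0.523 and 0.111 FPKM in control. Col15a1, which in mice protects muscle fibres from damage, had 0.00860 FPKM in knockdown replicate 1, about the level of 1.63 reads, and was listed at 0 elsewhere. Col4a3 and Col4a4 stayed below 0.1 FPKM, and Col4a6 was listed at 0 in all samples.

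Of the other chains, Col19a1 was the most abundant. It belongs to the FACIT group, which bind to or link larger assemblies, and in mice it is needed for normal muscle of the oesophagus. Col19a1 (chr1:24261890-24587472, minus strand) had 5.64 and 7.32 FPKM in knockdown and 5.40 and 6.60 FPKM in control. The groups overlapped, with a log2 fold change of 0.09 (95% interval -0.40 to 0.59). Col12a1, a FACIT chain whose human mutations cause a muscle and connective tissue disease, had 1.00 and 1.58 FPKM in knockdown and 0.938 and 1.09 FPKM in control, also with overlap. Col8a1, a short chain of hexagonal networks, had 1.53 and 4.36 FPKM in knockdown and 3.25 and 4.18 FPKM in control. Its log2 fold change of -0.35 was 0.19 without knockdown replicate 1.

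Type VI collagen, the beaded filament around muscle fibres, was represented almost wholly by Col6a1. It had 2.22 and 4.06 FPKM in knockdown and 2.13 and 3.28 FPKM in control, with overlapping groups and a log2 fold change of 0.14 (95% interval -0.58 to 0.87). Col6a2, which lies 85161 bases from it on the same strand of chromosome 10, had 0.158 and 0.334 FPKM in knockdown and 0.386 and 0.281 FPKM in control. Col6a1 was therefore 14.1 and 12.1 times as high as Col6a2 in knockdown, and 5.52 and 11.7 times in control. These ratios rest on few reads of Col6a2, which was below the filter. On its longest transcript it corresponded to at most 28.5 and 67.4 reads in knockdown and 74.2 and 53.9 in control. Col6a3, the large chain of the common type VI trimer, had 0.0917 FPKM in knockdown replicate 1 and was listed at 0 in the other 3 libraries. Col6a4, Col6a5 and Col6a6 were listed at 0 in all samples.

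Among chains below the filter, 12 exceeded 0.1 FPKM in some library, and none of these was tested. Besides Col6a2 and Col4a5, Col10a1, a chain of cartilage before it turns to bone, had 0.192 and 0.785 FPKM in knockdown and 0.120 and 0 FPKM in control. Col8a2, the partner of Col8a1, had 0.478 and 0.348 FPKM in knockdown and 0.0294 and 0.174 FPKM in control. In both genes the knockdown libraries were the higher. Col13a1, a transmembrane chain of the neuromuscular junction, was listed at 0 in both knockdown libraries and had 0.0557 and 0.218 FPKM in control.

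Col14a1, a FACIT chain, had 0.266 and 0.0446 FPKM in knockdown and 0 and 0.0411 FPKM in control, so its groups adjoined without overlap. Col7a1, the chain of anchoring fibrils in skin, had 0.192 and 0.307 FPKM in knockdown and 0.246 and 0.0321 FPKM in control. Col16a1 had 0.0318 and 0.346 FPKM in knockdown and 0.113 and 0.160 FPKM in control. The groups of Col7a1, Col16a1 and Col26a1 overlapped. Col26a1 had 0.201 and 0.0897 FPKM in knockdown and 0.139 and 0.149 FPKM in control. Col20a1, Col11a2 and Col9a3 were each above 0.1 FPKM in 1 control library alone, at 0.241, 0.205 and 0.106 FPKM, with the other 3 libraries at 0 to 0.0173 FPKM.

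The other 10 chains above 0 peaked at 0.0952 FPKM or less. They include Col25a1, which motor nerves need to enter muscle in mice, and Col22a1 of the muscle to tendon junction. The 9 chains listed at 0 in every sample were Col2a1 and Col11a1 of cartilage fibrils, Col9a1, Col4a6, Col6a4, Col6a5, Col6a6, Col17a1 of hemidesmosomes and Col23a1.

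Markers set the labelled cell type beside these levels. Myod1, a regulator of the muscle lineage, had 583 and 667 FPKM in knockdown and 698 and 691 FPKM in control. Myog, which acts later in the lineage, had 3406 and 2793 FPKM in knockdown and 4196 and 3931 FPKM in control. Pax7, which marks satellite cells, was low in every library, at 0.625 to 1.40 FPKM in knockdown and 0.859 to 1.02 FPKM in control. The 12 muscle lineage markers summed to 7336 to 9545 FPKM in knockdown and 10513 to 10970 FPKM in control, lower in knockdown. This sum was mostly Myog and Acta1, which had 4888 and 3151 FPKM in knockdown and 5326 and 5178 FPKM in control. Both knockdown libraries were also the lower for Myod1, Myf5 and Ckm, and the higher for Vcam1. The groups overlapped for Myh3, Itga7, Des, Cdh15, Tnnt3 and Pax7. The part of the difference in the marker sum in the collagen values was not tested.

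Fibroblasts are a cell type that hindlimb preparations can hold. The 14 fibroblast and fibro-adipogenic progenitor markers summed to 201 to 218 FPKM in knockdown and 207 to 214 FPKM in control, and 3 of 14 reached the filter. Those were Gsn, with 170 and 165 FPKM in knockdown and 160 and 147 FPKM in control, Islr and Cd34. Islr had 42.1 and 30.6 FPKM in knockdown and 51.2 and 58.5 FPKM in control (limma adjusted p 0.607). Cd34, which satellite cells also carry, had 4.52 and 4.62 FPKM in knockdown and 1.36 and 1.17 FPKM in control, with a log2 fold change of 1.2998 (limma adjusted p 0.265). Islr was thus the lower and Cd34 and Gsn the higher in both knockdown libraries, and their part in the collagen values was not tested. Pdgfra, the defining receptor of these cells, was listed at 0 in both knockdown libraries and had 0.160 and 0 FPKM in control, and Dcn stayed at or below 0.124 FPKM in all. The 6 tendon markers summed to 14.6 to 21.95 FPKM in knockdown and 17.8 to 19.3 FPKM in control. Of these Tnmd, Thbs4 and Comp were listed at 0, while the tendon factor Scx had 12.6 and 18.6 FPKM in knockdown and 14.6 and 16.0 FPKM in control. In bulk RNA fewer cells of a type and less RNA per cell cannot be told apart.

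The genes that modify, fold, secrete, trim, cross-link or bind collagen were followed in 7 lists of 89 genes, of which 63 were tested. With adjustment over all genes tested, 0 of the 63 passed in either direction. At an unadjusted p under 0.05 there were 4 with higher and 2 with lower values in knockdown, which is 9.52% of the 63 against 7.08% of all genes. This count includes P3h2, which averaged below 1 FPKM in knockdown, so it is a description and no support for a difference of the lists. The median log2 fold change of the 63 was 0.01, with 32 positive and 31 negative.

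**Figure D5:**
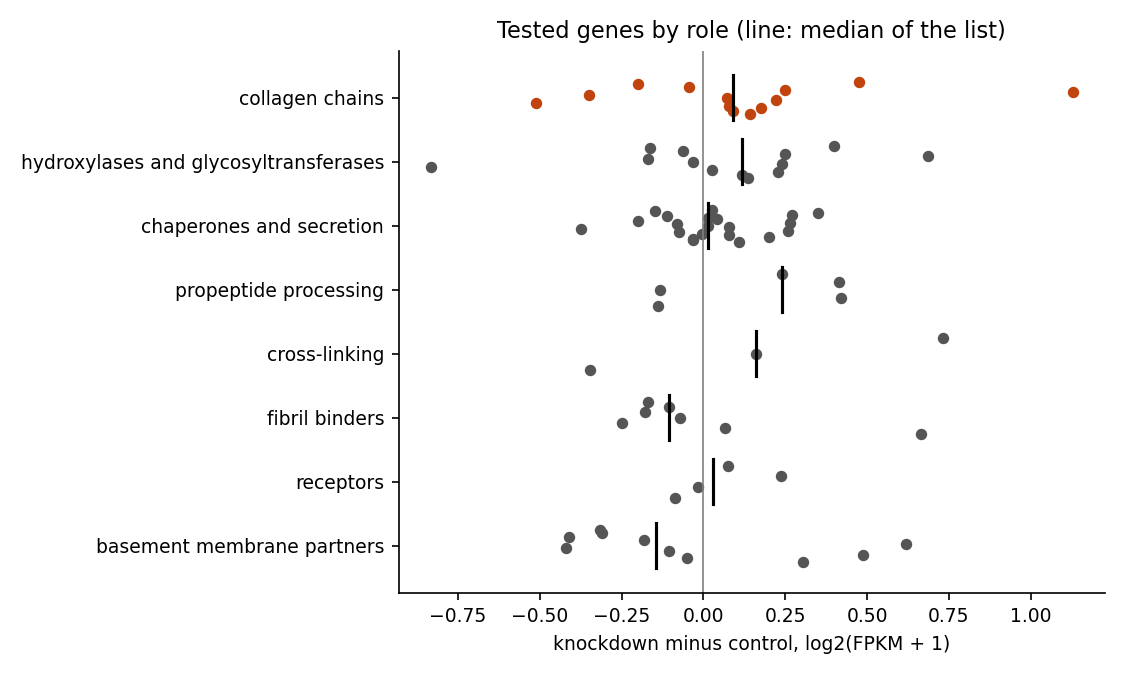
Differences (knockdown minus control, in log2(FPKM + 1) units) of the tested collagen chains (orange) and for tested genes of 7 lists by role (grey), with a black line at each median. The list medians run from -0.14 for basement membrane partners to 0.24 for propeptide processing.

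In the endoplasmic reticulum, Serpinh1, the collagen-specific chaperone, had 630 and 468 FPKM in knockdown and 474 and 557 FPKM in control, with overlapping groups. P4ha1, a catalytic subunit of prolyl 4-hydroxylase, had 39.2 and 44.7 FPKM in knockdown and 40.2 and 47.8 FPKM in control. Plod2, a lysyl hydroxylase that prepares cross-links, had 43.1 and 38.8 FPKM in knockdown and 33.6 and 35.4 FPKM in control, apart but with a limma adjusted p of 0.712. P3h2, a prolyl 3-hydroxylase that acts on type IV chains, had 0.905 and 0.671 FPKM in knockdown and 2.44 and 1.93 FPKM in control (limma adjusted p 0.607), and it passed the filter only through the control libraries. P4ha3 had 2.51 and 2.59 FPKM in knockdown and 0.708 and 1.85 FPKM in control. The 13 tested hydroxylases and glycosyltransferases had a median of 0.12, with 8 positive and 5 negative.

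The 21 chaperone and secretion genes had a median of 0.01, with 12 positive and 9 negative. Sec24d, a cargo adaptor of the vesicles that carry procollagen, had 38.9 and 40.9 FPKM in knockdown and 32.1 and 30.1 FPKM in control. Tmem38b, an ion channel of the reticulum, had 27.8 and 21.7 FPKM in knockdown and 33.3 and 31.0 FPKM in control. Their log2 fold changes were 0.35 and -0.37, with limma adjusted p-values of 0.640 and 0.695.

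Outside the cell, propeptide processing genes had a median of 0.24 over 5 tested members, 3 positive and 2 negative. Pcolce2, an enhancer of the procollagen C-proteinase, had 5.47 and 5.97 FPKM in knockdown and 3.36 and 4.81 FPKM in control. Bmp1, that proteinase, had 6.01 and 8.33 FPKM in knockdown and 5.98 and 5.71 FPKM in control. In the cross-linking list Lox, which oxidises lysines of fibrillar chains, had 93.6 and 96.9 FPKM in knockdown and 56.2 and 57.8 FPKM in control. Its log2 fold change of 0.73 ± 0.09 (SE) had the lowest unadjusted p of the 63 genes, at 0.000229, and a limma adjusted p of 0.235. Loxl3 had 2.58 and 1.28 FPKM in knockdown and 2.30 and 3.01 FPKM in control, and the median of the 3 tested members was 0.16, with 2 positive and 1 negative.

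Of the fibril binders 7 of 14 were tested, with a median of -0.10, 2 positive and 5 negative. Fn1, the fibronectin on which collagen is laid down, had 6.42 and 8.98 FPKM in knockdown and 3.65 and 5.36 FPKM in control, and its log2 fold change was 0.66 (limma adjusted p 0.674). Sparc, a collagen-binding matricellular protein, had 278 and 297 FPKM in knockdown and 331 and 320 FPKM in control, and its log2 fold change was -0.18 (limma adjusted p 0.701). Among the receptors 4 of 10 were tested, with a median of 0.03. Itgb1, the beta subunit of collagen-binding integrins, had 400.0 and 355.5 FPKM in knockdown and 304 and 336 FPKM in control. Ddr1, a collagen-activated kinase, had 19.5 and 23.4 FPKM in knockdown and 26.2 and 19.8 FPKM in control. Ddr2, a kinase of the same family, had 9.62 and 12.97 FPKM in knockdown and 11.5 and 11.2 FPKM in control.

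The basement membrane partners had a median of -0.14 over 10 tested members, 3 positive and 7 negative, where the type IV chains were 1 positive and 1 negative. Pxdn, the peroxidase that cross-links type IV collagen, had 3.52 and 5.11 FPKM in knockdown and 2.22 and 2.64 FPKM in control, and its log2 fold change was 0.62 (limma adjusted p 0.684). Lamb1, a laminin chain, had 3.07 and 2.43 FPKM in knockdown and 1.63 and 1.70 FPKM in control. Nid1, which ties laminin to type IV collagen, had 1.42 and 0.909 FPKM in knockdown and 0.469 and 0.435 FPKM in control and was below the filter. In these 3 genes, as in Col4a1 and Col18a1, both knockdown libraries lay above both controls, an arrangement met in 22.1% of all genes tested.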

How the data were processed

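Per the labels' protocols, cDNA from polyadenylated RNA was amplified (SMART-Seq v4), sheared, and sequenced on an Illumina instrument in pairs of 150 nt. StringTie 1.3.3, HISAT2 2.1.0, SAMtools 1.3, Trimmomatic 0.36, bcl2fastq 2.19 and the mm10 build are listed in the submitters' processing notes, with no stated order. Neither strand handling nor the annotation used for counting is given in these sources. The authors deposited 1 FPKM value per gene and sample; the unit was read from the values, whose columns sum to between 317223 and 322496. In genes with 1 exon and 1 transcript, low FPKM times length fell on multiples of the value of 1 aligned base for 82.2% to 84.3% of values within a tolerance of 0.1 (chance gives 20%), so that an FPKM of 1 on 1 kb rests on 36.6 to 41.1 reads.

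The 10900 genes averaging 1 FPKM or more entered a limma-trend fit (limma 3.58.1, R 4.3.3) of log2(FPKM + 1), a scale on which low genes' changes are understated. Tests were two-sided, with Benjamini-Hochberg adjustment and a threshold of 0.05. Degrees of freedom were 2 residual and 4.09 prior. The fit was also run on values simulated from its own means and spreads, which does not check its assumptions on these data. Ratios and sums were computed in Python 3.11.15. Coordinates, exons and coding sequences were read from GENCODE M21 (GRCm38, to which mm10 corresponds), which holds all 44 identifiers, taking the transcript with the longest coding sequence. Of the 13 tested chains 4 share exonic bases with another gene, at most 2.50% of them, and each has 2 to 8 annotated transcripts, whose use can move a gene's FPKM.

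The members and lists were chosen with earlier results of these data known. All chains above the filter or 0.1 FPKM were to be named, and from each other list the 2 tested genes with the lowest p, besides Serpinh1, P4ha1, Plod2, Lox, Sparc, Nid1 and Ddr2. Further genes were chosen after their values were seen, and marker lists other than fibroblast are given by their sums, with some of their genes. Markers of Schwann cells, endothelium, macrophages, pericytes with smooth muscle, and cartilage with bone were read too. In knockdown these lists summed to 19.3 to 45.6, 6.58 to 6.89, 2.43 to 3.40, 2580 to 2673 and 30.3 to 36.2 FPKM. In control they summed to 42.4 to 47.1, 5.88 to 8.45, 2.27 to 2.83, 3026 to 3171 and 34.8 to 35.5 FPKM. Listed at 0 in all samples were S100b and Ncam2 (Schwann cells), Kdr (endothelium), Adgre1, Ptprc and C1qa (macrophages), Kcnj8 (pericytes), and Ibsp, Matn1 and Bglap (cartilage and bone). The pericyte and smooth muscle sum, lower in knockdown, was mostly Acta2, with 2670 and 2576 FPKM in knockdown and 3165 and 3021 FPKM in control. Mcam, Cspg4, Abcc9 and Rgs5 were also the lower in both knockdown libraries, while Notch3 and Myh11 overlapped. Pdgfrb was the higher, with 0.460 and 0.634 FPKM in knockdown and 0.150 and 0.184 FPKM in control. Myh11 and Rgs5 stayed at or below 0.0337 and 0.0981 FPKM in all libraries. The part of this sum in the collagen values was not tested.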

Additional observations from a re-analysis of the deposited data

How the results depend on the processing

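The count of collagen chains past the adjusted threshold was 0 under every alternative run, and so was that of the 63 collagen-related genes. Chains at an unadjusted p under 0.05 numbered 1 in the reported fit. They numbered 2 with quantile normalization, a pseudocount of 0.1 or no trend, 3 with no filter (Col18a1, Col3a1 and Col8a2), 0 with a filter at 5 FPKM, which removes Col18a1, and 1 to 3 with 1 library left out. Of all genes tested, 1 was called higher and 5 lower. The higher count was 2 with median ratio scaling or a pseudocount of 0.1 or 0.5, 0 with no filter, and 2 to 4 without 1 library. The lower count was 2 with the replicate block, 3 without the trend, 0 with no filter, and 2 to 11 without 1 library. The basement membrane median of 0.47 was -0.017 with no filter (7 chains), 0.14 with a filter at 5 FPKM or type IV alone, and 0.31 to 0.64 without 1 library. The collagen-related genes at an unadjusted p under 0.05, 6 as reported, numbered 2 to 11 without 1 library. The log2 ratio difference of Col6a1 over Col6a2, 0.70, was 0.16 without control replicate 1 and 1.24 without control replicate 2.

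Of the alternative values of single chains, 139 kept their sign and 11 turned, all with 1 library left out. The ranges over those fits were -0.095 to 0.0096 for Col1a2, -0.59 to 0.19 for Col4a2 and -0.89 to 0.19 for Col8a1, which turned without knockdown replicate 1. They were -0.18 to 0.47 for Col6a1, -0.41 to 0.56 for Col5a3, -0.072 to 0.25 for Col19a1 and -0.0086 to 0.36 for Col12a1, which turned without knockdown replicate 2. Without control replicate 1 Col6a1 (-0.08), Col5a3 (-0.03) and Col19a1 (-0.03) turned too, and Col5a1 (-0.096 to 0.24) turned without control replicate 2. The causes were not tested. In fits without a library the lone sample is assumed to vary like the other group. Same-numbered replicates did not deviate together (correlation -0.02 across genes), so the replicate block pairs samples by number only; with it the chains called stayed at 0. With 2 samples a group, the 95% intervals of the 13 tested chains include 0, except that of Col18a1.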
